A study of Bos taurus with 11 samples.

Results

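The citric acid cycle enzymes described here are the products of 9 genes, CS, IDH2, IDH3A, IDH3B, OGDH, SUCLG1, FH, MDH1 and MDH2, which the array carries as 27 of its 43653 probes. They were chosen by gene name, as annotated in the Sahiwal scanner files and joined to the Ladakhi files by probe identifier, and each probe was kept apart. Total RNA of peripheral blood mononuclear cells (PBMCs, that is lymphocytes and monocytes) was hybridised to 1-colour bovine oligonucleotide arrays, 1 animal per array. Ladakhi cattle, native to the high altitude of Ladakh, gave 5 arrays, and Sahiwal cattle from low altitude, whose samples are titled basal, gave 6 arrays. All 11 animals were female. No age, treatment or time of sampling is given in the sources used here, and altitude and breed cannot be told apart, since each breed came from a single altitude.

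The cycle runs in the mitochondrial matrix. It oxidises the acetyl groups that pyruvate, fatty acids and amino acids deliver to carbon dioxide, and passes the electrons to the respiratory chain. Its intermediates also leave for other uses, such as citrate for lipid synthesis. Lymphocytes that are activated rely more on glycolysis and draw on the cycle for such building blocks, while resting lymphocytes oxidise fuel through it.

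Some properties of the arrays bear on every value below. Spots well above background numbered 5373 ± 1117 (SD, n = 5) on the Ladakhi arrays and 18848 ± 1352 (SD, n = 6) on the Sahiwal arrays, of 43803 spots each. Breed coincided with scanner, image extraction version and slide, so a breed difference and a platform difference cannot be told apart. A level is the log2 of the processed signal relative to the array's own 75th percentile, taken over 2705 probes that all 11 arrays detected. The lowest level that counted as well above background averaged -3.60 on the Ladakhi arrays (range -4.26 to -3.03) and -8.22 on the Sahiwal arrays. A gene dimmer than the Ladakhi limit in Sahiwal could therefore be measured in Ladakhi only if it was higher there. A probe counts as measured where 4 or more arrays of Ladakhi and 4 or more of Sahiwal showed it well above background, and as tested where 1 of the breeds did. Below, detected and above background stand for this well above background mark. A signal without the mark can still be a dim signal rather than a surrogate. In RNA of mixed cells, fewer cells of a type and less RNA per cell cannot be told apart.

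The probes are 60-base oligonucleotides from different places in each message, and 3 groups of them bear on how the values below can be read. Sequences are printed 5′ to 3′ as deposited, with positions on build HGSC Btau_3.1, the one the files use. The first group is a pair of IDH2 probes that overlap, with the 35 shared bases in capitals, so that they are not separate looks at the message.
IDH2 probe A_73_P365236, bases 22663 to 22722 of an unplaced scaffold: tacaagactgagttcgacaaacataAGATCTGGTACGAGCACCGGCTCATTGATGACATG
IDH2 probe A_73_P337931, bases 22688 to 22747 of the same scaffold: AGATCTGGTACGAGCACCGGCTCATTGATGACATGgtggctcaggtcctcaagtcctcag
The second is the SUCLG1 probe that did not show the difference found by the other probe of that gene, and its coordinates extend far beyond its 60 bases.
SUCLG1 probe A_73_P144196, chr11:52332413-52338712: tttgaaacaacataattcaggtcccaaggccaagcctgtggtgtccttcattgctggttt
The third holds the probes with the letters AATAAA, the common polyadenylation signal, in capitals. Only bases 31 to 60 are shown of each.
SUCLG1 probe A_73_101561, within chr11:52340529-52340588: ctaaataagaggagcagccAATAAAtctac
MDH2 probe A_73_P422416, within chr25:36334292-36334351: ctcggtcagtctgtcggtgcatcAATAAAa
IDH3B probe A_73_P074061, within chr13:53076653-53076712: agatgtccAATAAAacatggtatgactctt
The letters occurred in 3 of the 27 probes (11.1%), against 9.35% of all probes on the array, and their reverse complement in 1 of 27, against 3.46%. Of the 6 measured probes, 2 carry them (33.3%), against 20.8% of all measured probes, and these 2 are the ones called lower in Ladakhi below. Among probes that were tested but not measured, that of IDH3B with the letters differed by 0.00. MDH2 probe A_73_P043566, without them, differed by -0.90. A link between the letters and the differences was not tested. A match describes these letters and does not show that the signal is used. FH probes A_73_102956 and A_73_P286366 also overlap, by 48 bases.

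The comparison asks how transcript levels in blood cells of cattle native to high altitude differ from those of cattle from low altitude. Among the cycle enzymes that could be compared, MDH2, the malate dehydrogenase of the mitochondrion, was lower in Ladakhi cattle, and 1 of the 2 measured probes of SUCLG1, a subunit of succinyl-CoA ligase, was lower too. CS, IDH2 and OGDH did not pass the test, and IDH3A, IDH3B, FH and MDH1 were too dim in Ladakhi to be compared on 4 arrays of each breed. Of the 27 probes, 6 probes of 5 genes were measured. Of these 6, 2 were lower in Ladakhi, 0 were higher and 4 did not pass (limma, Benjamini-Hochberg adjusted p under 0.05). Over all 4048 measured probes of the array, 14.5% were called lower, 18.2% higher and 32.7% in either direction, so that the share of called cycle probes, 2 of 6, lay near that of the array. The breeds did not overlap for 1 of the 6 probes, that of MDH2, against 21.6% of all measured probes. The median difference of the 6 probes, Ladakhi minus Sahiwal, was -0.43 on the log2 scale, against -0.02 over all measured probes, whose middle 50% lay between -0.67 and 0.62. Without Ladakhi animal 4 the median was -0.19.

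**Figure D1:**
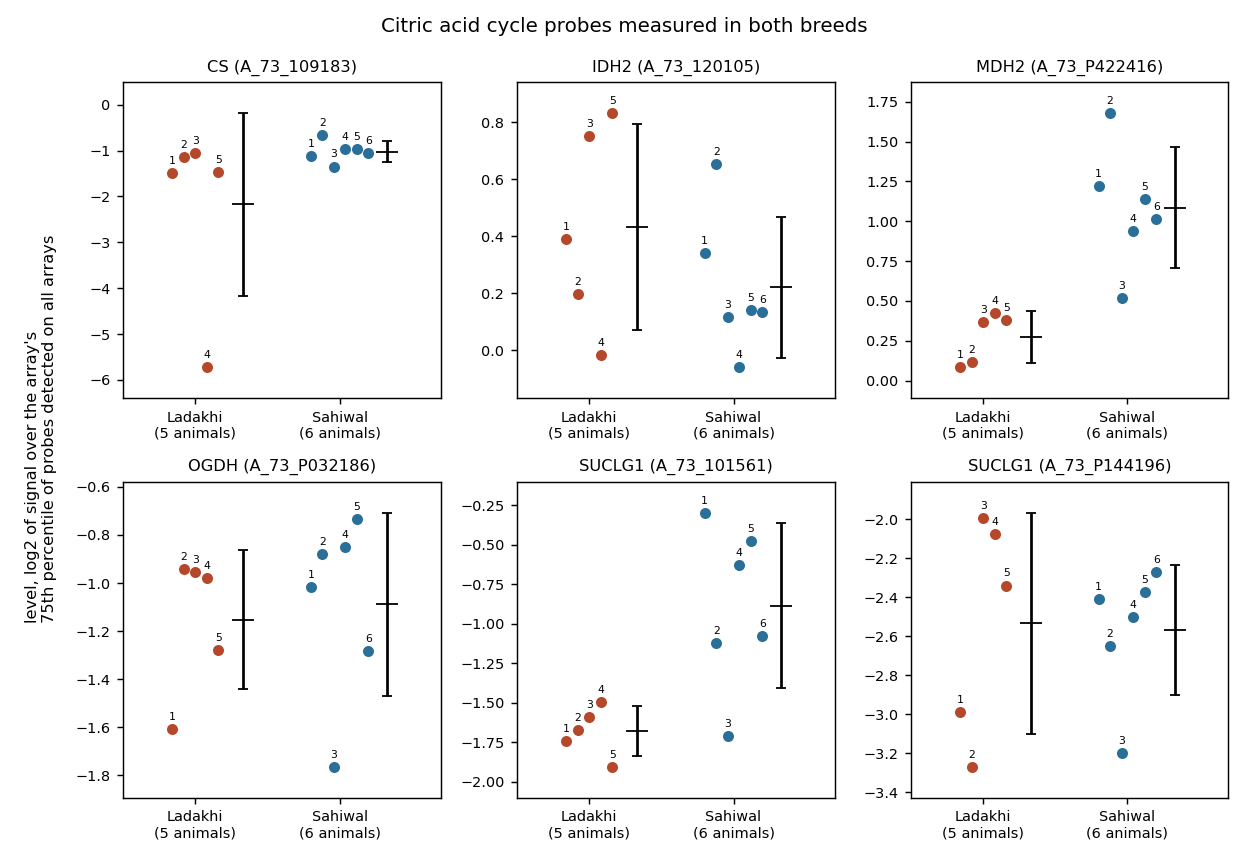
Level of the 6 cycle enzyme probes measured in both breeds, as log2 of the signal over the array's 75th percentile of probes detected on all arrays, with 5 Ladakhi animals on the left and 6 Sahiwal animals on the right of each panel (points numbered by animal, bars mean and SD, vertical scales differ). For MDH2 all Ladakhi points, 0.08 to 0.43, lie below all Sahiwal points, 0.52 to 1.68, and the CS value of Ladakhi animal 4, -5.73, is a surrogate for a signal not above background.

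Citrate synthase, encoded by CS, joins acetyl-CoA to oxaloacetate and so admits carbon to the cycle. Its measured probe A_73_109183 (chr5:61630026-61630085) had levels of -1.48, -1.14, -1.05, -5.73 and -1.47 in Ladakhi animals 1 to 5, against -1.12, -0.67, -1.35, -0.97, -0.98 and -1.06 in Sahiwal animals 1 to 6. Of the Ladakhi animals, 4 lay within or just below the Sahiwal values. The value of animal 4 is a surrogate for a signal not above background, so its distance from the others is not a measured size. The difference was -1.15 (SE 0.68, adjusted p = 0.185 by limma) and did not pass. Without Ladakhi animal 4 it was -0.26 (adjusted p = 0.438 by limma). With dim signals raised to the detection limit of their array, which understates lower and overstates higher values in Ladakhi, it was -0.69 (adjusted p = 0.101 by limma), and with normexp background correction -0.65 (adjusted p = 0.0863 by limma). On the array of animal 4 the CS spot carried no outlier mark, and its raw median signal was 276.5 over a local background of 94.5, against 628 to 1122 over 77 to 93 on the other Ladakhi arrays. Of 3132 probes detected on the other 4 Ladakhi arrays, 423 were not well above background on that of animal 4. This lay within the 67 to 451 found in the same way for the other Ladakhi arrays. Probes at least 4 log2 units below the lowest other Ladakhi array were more frequent for animal 4. They numbered 42 (1.34%), CS among them, against 11 to 19 (0.396% to 0.645%) for the other Ladakhi arrays. The other CS probes gave no comparison, since A_73_P107236 was above background on 3 Sahiwal arrays only and A_73_P101601 on none of the 11 arrays.

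Isocitrate dehydrogenases carry out the first oxidative decarboxylation. IDH2 encodes the NADP-dependent enzyme of the mitochondrion, while IDH3A and IDH3B encode the catalytic alpha and the beta subunit of the NAD-dependent enzyme, whose gamma subunit comes from IDH3G. IDH2 probe A_73_120105 (an unplaced scaffold, bases 26661 to 26720) had levels of 0.39, 0.20, 0.75, -0.02 and 0.83 in the Ladakhi animals, against 0.34, 0.65, 0.12, -0.06, 0.14 and 0.14 in the Sahiwal animals. The breeds overlapped over most of their range. The difference was 0.21 (SE 0.26, 95% confidence interval -0.35 to 0.77, adjusted p = 0.542 by limma). The other IDH2 probes, the overlapping pair printed above, were detected on all 6 Sahiwal arrays, and on 1 Ladakhi array for A_73_P337931 and 0 for A_73_P365236. Their Sahiwal means of -4.18 and -4.66 lay below the Ladakhi limit, so no direction is read from them.

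IDH3A probes A_73_P035551 and A_73_P265621 (chr21:30611724-30611783 and chr21:30611435-30611494) were above background on all 6 Sahiwal arrays and on 0 Ladakhi arrays. Their Sahiwal levels ran from -5.14 to -3.80 and from -5.24 to -3.78, with Sahiwal animal 4 lowest and animal 2 highest for both. Means of -4.41 ± 0.46 and -4.44 ± 0.50 (SD, n = 6) lay below the Ladakhi limit, so that an equal Ladakhi level could not have been seen and no fold is given. IDH3B probe A_73_P074061, which holds the AATAAA letters, was detected on 3 Ladakhi arrays. Its levels were -3.24, -4.72, -4.60, -2.94 and -2.28 in Ladakhi animals, against -3.23, -3.49, -3.53, -3.90, -3.29 and -3.91 in Sahiwal animals. The Ladakhi values spread on both sides of the Sahiwal values, with a difference of 0.00 (SE 0.42, adjusted p = 0.998 by limma). IDH3B probe A_73_105836 (chr13:53076512-53076571), detected on 2 Ladakhi arrays, had levels of -3.31, -3.65, -2.70, -4.21 and -3.15 in Ladakhi animals, all above the Sahiwal range of -5.34 to -4.26. Its difference of 1.33 passed the test (SE 0.32, adjusted p = 0.00496 by limma), but 3 of the 5 Ladakhi values are signals not well above background. The Sahiwal mean of -4.73 lay below the Ladakhi limit, so this direction is not read. The 2 probes for another IDH3B transcript record, A_73_P163057 and A_73_P442221, were dim in Sahiwal, with means of -7.05 and -6.77 on 5 detected arrays each, and were detected on 0 Ladakhi arrays.

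OGDH encodes the decarboxylase subunit of the oxoglutarate dehydrogenase complex, which turns oxoglutarate into succinyl-CoA. Probe A_73_P032186 (chr4:79525978-79526037) had levels of -1.61, -0.94, -0.96, -0.98 and -1.28 in Ladakhi animals, against -1.02, -0.88, -1.77, -0.85, -0.73 and -1.28 in Sahiwal animals. The lowest value of each breed came from a single animal, Ladakhi 1 and Sahiwal 3, and the remaining values interleaved. The difference was -0.06 (SE 0.27, 95% confidence interval -0.65 to 0.52, adjusted p = 0.869 by limma). A further OGDH probe, A_73_P260616, was above background on no array.

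SUCLG1 encodes the alpha subunit of succinyl-CoA ligase, which makes a nucleoside triphosphate directly and pairs with a beta subunit from SUCLG2 or SUCLA2. Its probes disagreed. Probe A_73_101561 had levels of -1.74, -1.67, -1.59, -1.49 and -1.91 in Ladakhi animals, against -0.30, -1.12, -1.71, -0.63, -0.48 and -1.08 in Sahiwal animals. The Ladakhi animals lay close together, and all Sahiwal animals but animal 3 lay above them. Ladakhi cells were 1.74-fold lower, a difference of -0.80 (SE 0.29, adjusted p = 0.0403 by limma). This call ended when Ladakhi animal 1, 2, 3 or 5 or Sahiwal animal 1, 4, 5 or 6 was left out (adjusted p up to 0.0919 by limma), after quantile normalization (-0.56, adjusted p = 0.103) and with normexp (-0.39, adjusted p = 0.117).

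SUCLG1 probe A_73_P144196 had levels of -2.99, -3.27, -1.99, -2.08 and -2.34 in Ladakhi animals, of which 4 were above background, against -2.41, -2.65, -3.20, -2.50, -2.37 and -2.27 in Sahiwal animals. The breeds overlapped fully, and the difference was 0.03 (SE 0.31, 95% confidence interval -0.63 to 0.69, adjusted p = 0.939 by limma). Taken within each array, the first SUCLG1 probe minus this one gave 1.24, 1.60, 0.41, 0.58 and 0.43 in Ladakhi animals, against 2.12, 1.53, 1.49, 1.87, 1.90 and 1.19 in Sahiwal animals. The value of Ladakhi animal 2, 1.60, rests on a signal of A_73_P144196 that was not well above background. The Ladakhi mean was 0.85 ± 0.54 (SD, n = 5) and the Sahiwal mean 1.68 ± 0.34 (SD, n = 6), with overlap through Ladakhi animals 1 and 2. The 2 probes thus gave different breed differences, by -0.83 (exact permutation test, two-sided, p = 0.0303, smallest possible p = 0.00433). Without Ladakhi animal 2 the Ladakhi mean was 0.67 ± 0.39 (SD, n = 4), and the difference was -1.02 (exact permutation test, two-sided, p = 0.019, smallest possible p = 0.00952). Both comparisons were chosen after the values were seen. Only the breed contrast of this quantity is read, because the levels of different probes have no common scale.

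**Figure D2:**
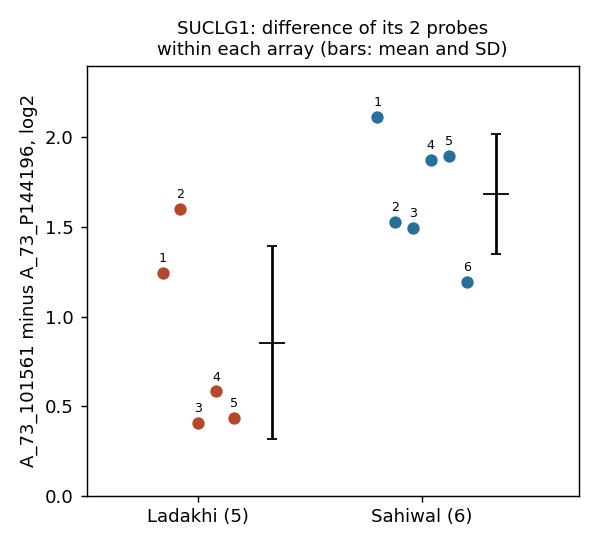
Level of SUCLG1 probe A_73_101561 minus that of SUCLG1 probe A_73_P144196 within each array, in log2 units, for 5 Ladakhi animals on the left and 6 Sahiwal animals on the right (points numbered by animal, bars mean and SD). Ladakhi animals 3, 4 and 5, at 0.41 to 0.58, lie below all Sahiwal animals, at 1.19 to 2.12. Ladakhi animals 1 and 2 lie among the Sahiwal animals, animal 2 by a signal not well above background.

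Fumarate hydratase, encoded by FH, adds water to fumarate to give malate, and a form of it also acts in the cytosol. Its probe A_73_102956 (chr16:32632871-32632930) was detected on all 6 Sahiwal arrays and 1 Ladakhi array. Levels were -3.69, -4.22, -4.37, -3.04 and -4.58 in Ladakhi animals, against -3.11, -3.23, -3.52, -3.06, -2.52 and -3.34 in Sahiwal animals. Only Ladakhi animal 4, the detected one, lay within the Sahiwal range. The difference was -0.85 (SE 0.32, adjusted p = 0.044 by limma), but it rests on signals not well above background in 4 Ladakhi animals. With dim signals raised it was -0.39 (adjusted p = 0.249 by limma) and no longer passed. The other 3 FH probes were detected on all 6 Sahiwal arrays and 0 Ladakhi arrays, with Sahiwal means of -5.17 to -3.76, all below the Ladakhi limit. Sahiwal animal 5 was highest for A_73_102956, A_73_P286366 and A_73_P425386, and for the overlapping A_73_P286366 it stood at -2.55, against -4.57 to -3.68 in the other Sahiwal animals.

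Malate dehydrogenases close the cycle by oxidising malate to oxaloacetate. MDH2 encodes the mitochondrial enzyme and MDH1 the cytosolic enzyme, and together they carry reducing equivalents across the inner membrane in the malate-aspartate shuttle. MDH2 probe A_73_P422416 had levels of 0.08, 0.12, 0.37, 0.43 and 0.38 in Ladakhi animals, against 1.22, 1.68, 0.52, 0.94, 1.14 and 1.02 in Sahiwal animals. Every Ladakhi animal lay below every Sahiwal animal, with Sahiwal animal 3 the nearest. Ladakhi cells were 1.75-fold lower, a difference of -0.81 (SE 0.26, adjusted p = 0.0237 by limma). The call ended without Ladakhi animal 1 (adjusted p = 0.0523) or Sahiwal animal 2 (adjusted p = 0.0533), and the difference stayed between -0.92 and -0.69 whichever animal was left out.

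A second MDH2 probe, A_73_P043566 (chr25:36332779-36332838), was detected on 3 Ladakhi arrays. Its levels were -3.39, -3.95, -2.61, -2.63 and -2.40 in Ladakhi animals, against -2.13, -1.49, -2.62, -2.21, -2.16 and -1.95 in Sahiwal animals. All Ladakhi animals lay below all Sahiwal animals except animal 3. The difference was -0.90 (SE 0.33, adjusted p = 0.0401 by limma) and, with dim signals raised, -0.69 (adjusted p = 0.0305 by limma). The call before raising ended without Ladakhi animal 1 or 2 or Sahiwal animal 1, 2, 4, 5 or 6, with an adjusted p of at most 0.104 by limma. It also ended after quantile normalization (-0.63, adjusted p = 0.142), with normexp (-0.35, adjusted p = 0.196) and with the 75th percentile over all probes (-0.92, adjusted p = 0.0521). Of the remaining MDH2 probes, A_73_P471498 was detected on 6 Sahiwal arrays and 0 Ladakhi arrays, and A_73_P119891 on no array.

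MDH1, the cytosolic partner, was not measured in Ladakhi. Probe A_73_103621 (chr11:63835757-63835816) was above background on all 6 Sahiwal arrays, at -4.06 to -3.15, and on 0 Ladakhi arrays. Its mean in Sahiwal, -3.49 ± 0.32 (SD, n = 6), lay within the span of the limits of the Ladakhi arrays. The difference of -1.03 (adjusted p = 0.022 by limma) rests wholly on Ladakhi signals not well above background. It was -0.11 with dim signals raised (adjusted p = 0.756 by limma), so no direction is read. MDH1 probe A_73_P251801 (chr11:63833596-63833655) had levels of -2.42, -4.35, -3.81, -5.18 and -4.44 in Ladakhi animals, 2 of them above background, against -5.76, -6.08, -6.10, -5.75, -5.53 and -5.60 in Sahiwal animals. Its difference of 1.76 (SE 0.40, adjusted p = 0.00376 by limma) is not read as a direction, since its Sahiwal mean of -5.80 lay below the Ladakhi limit. The last MDH1 probe, A_73_P118626, was above background on no array.

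Counted over the 22 tested probes, which cover all 9 genes, 4 were called higher and 8 lower in Ladakhi, against 24.5% higher, 17.3% lower and 41.8% in either direction of all 17865 tested probes. These directions are not read for the 16 probes that were not measured, because their Ladakhi values are partly or wholly signals not well above background. Of the 16, 6 lay above background on 1 to 3 Ladakhi arrays. With dim signals raised, 1 of these 6 was lower, that of MDH2, against 17.4% of all such probes, and 3 were higher, against 37.3%, and in all 3 the Sahiwal mean lay below the Ladakhi limit, so that the raising sets their direction. The other 10 lay above background on 0 Ladakhi arrays, and 9 of them, of 5 genes, had Sahiwal means below the Ladakhi limit. Over all 27 probes, a probe was above background on 29.6% of the Ladakhi arrays and 82.1% of the Sahiwal arrays on average, against 12.3% and 43.0% over all probes of the array.

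**Figure D3:**
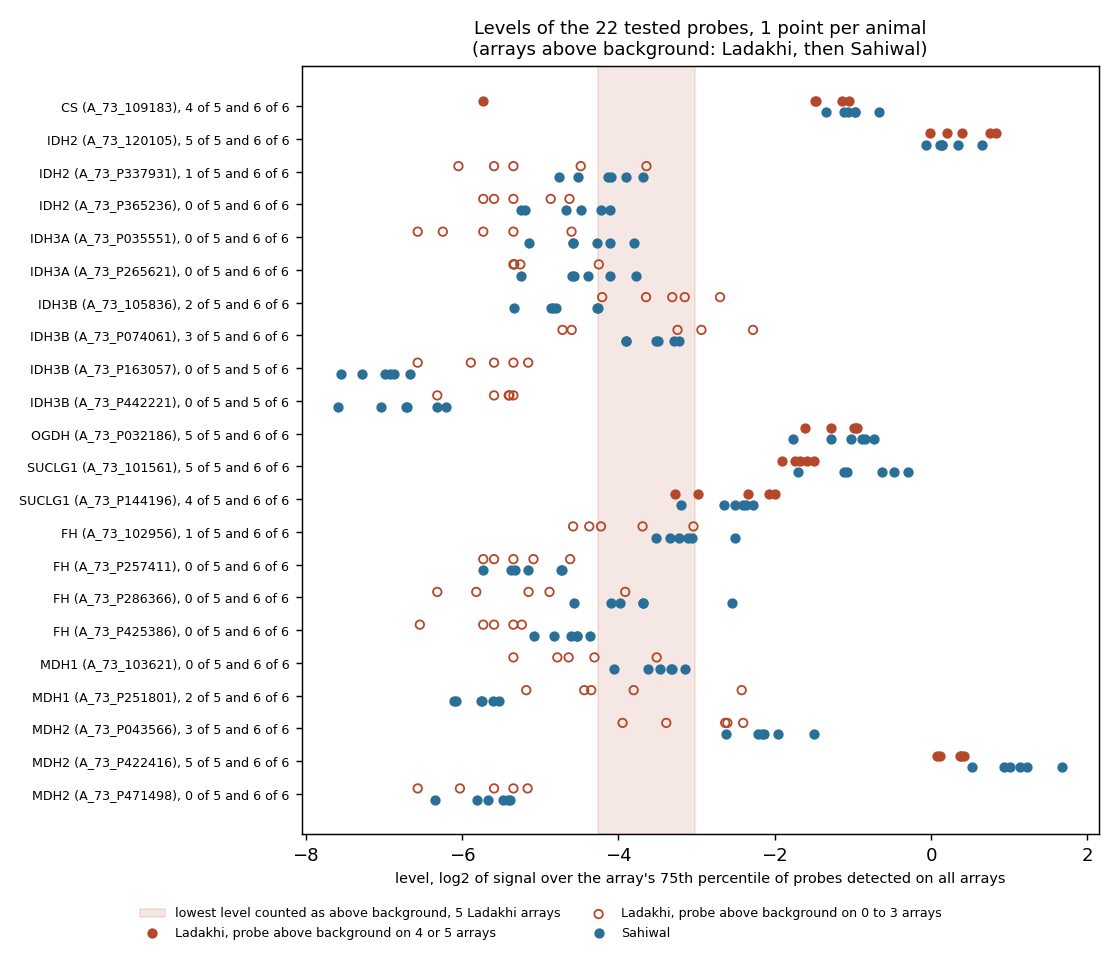
Level of each of the 22 tested probes, as log2 of the signal over the array's 75th percentile of probes detected on all arrays, with the 5 Ladakhi animals as the upper and the 6 Sahiwal animals as the lower row of points for each probe; open points mark probes above background on 0 to 3 Ladakhi arrays, and the band spans the lowest level counted as above background on the 5 Ladakhi arrays, -4.26 to -3.03. The 6 measured probes lie in or to the right of the band in Sahiwal, and most other probes lie in it or to its left.

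The Sahiwal animals, with 20 of the 27 probes above background on all 6 arrays, show how the enzymes varied between animals of a breed. Animal 3 was the lowest in 14 of the 20 probes, whereas it was the lowest in 29.7% of the 15098 probes of the array detected on all 6. Its median deviation from the mean of the 6 animals was -0.48 over the 20 probes, against -0.21 over all probes. Its array was also the dimmest of the Sahiwal arrays, with a 75th percentile of signal of 6449, against 9479 to 15176. With 1 array per animal, a trait of the animal and one of its array cannot be told apart. Animal 2 was the highest in 7 probes, animal 5 in 6 and animal 1 in 5, where they were the highest in 13.5%, 31.3% and 13.8% of all these probes of the array. The 20 probes come from 9 genes and share arrays, so they are not separate measurements of an animal. In Ladakhi no animal was the lowest in more than 2 of the 6 measured probes.

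The genes whose animal-to-animal pattern was most like that of the enzymes were ATXN10, GGA3 and AP1B1. Likeness was the root mean square difference, over 11 arrays and with each breed centred on its own mean, from the mean profile of the 4 enzyme probes detected on all arrays. It was 0.105 for ATXN10, 0.133 for GGA3 and 0.154 for AP1B1, against a median of 0.444 over 1750 genes ranked. All these profiles share the arrays and their scaling.

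Other genes of the cycle moved in both directions. Of 23 probes of 9 genes, 5 probes of 4 genes were measured, of which 3 were higher and 1 lower in Ladakhi. IDH3G, the regulatory gamma subunit that works with IDH3A and IDH3B, was higher. Its probe A_73_P415326 had levels of -1.89, -1.90, -1.68, -1.53 and -2.04 in Ladakhi animals, against -2.87, -3.20, -2.77, -3.28, -2.97 and -3.47 in Sahiwal animals, without overlap. The difference was 1.29 (SE 0.25, adjusted p = 0.00137 by limma). IDH3G probe A_73_103536, also counted among the 3 higher probes, gave 1.24 (SE 0.29, adjusted p = 0.00418 by limma). Its mean in Sahiwal, -4.15, was under the detection limit of Ladakhi. It could thus be measured only by being higher there, and it adds no separate support.

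SUCLG2, the GTP-forming beta subunit that pairs with SUCLG1, was 3.83-fold higher by probe A_73_P039821. Its levels were -1.99, -1.39, -1.31, -0.73 and -1.36 in Ladakhi animals, against -3.06, -4.02, -3.48, -3.23, -2.99 and -3.00 in Sahiwal animals (difference 1.94, SE 0.30, adjusted p = 0.000366 by limma). The Sahiwal mean of A_73_P039821, -3.29, lay just under the limits of Ladakhi arrays 1 and 2 (-3.28 and -3.03). An equal level would not have counted on 4 Ladakhi arrays, so being measured favoured a higher Ladakhi level. A further SUCLG2 probe, A_73_112489, on 2 Ladakhi arrays, gave -2.52, so the probes of this gene disagreed in sign. SDHC, a membrane anchor of succinate dehydrogenase, was 3.66-fold lower, at -3.18, -3.54, -2.54, -2.06 and -2.10 in Ladakhi animals, against -0.86, -0.91, -1.48, -0.38, -0.50 and -0.76 in Sahiwal animals (adjusted p = 0.000859 by limma). The breeds did not overlap for either of these 2 probes. The other tested SDHC probe, A_73_P092028, was detected on 3 Ladakhi arrays, overlapped between the breeds and gave -1.11 (adjusted p = 0.134 by limma), or -0.18 with dim signals raised (adjusted p = 0.575 by limma). The flavoprotein subunit SDHA, at -0.42, did not pass (adjusted p = 0.207 by limma), but did with normexp (-0.55, adjusted p = 0.03). A further 6 probes lay on 1 to 3 Ladakhi arrays. With dim signals raised, 3 of them were lower, the second SUCLG2 probe (-1.65), SDHB (-0.79) and another SDHA probe (-0.84). The SDHC probe just given and an SDHD probe (-0.65, adjusted p = 0.0548 by limma) did not pass, while DLD, whose mean in Sahiwal lay under the limit of Ladakhi, was higher by 1.99, which is not read as a direction.

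Genes that feed or drain the cycle had 10 of 63 probes measured, of 8 of 26 genes, with 3 higher, 0 lower and a median of -0.15. PDK2, a kinase that inactivates pyruvate dehydrogenase, was higher by 1.56 (SE 0.29, adjusted p = 0.000994 by limma). Its Ladakhi levels, -2.13 to -0.99, all lay above its Sahiwal levels, -3.69 to -3.00. Its Sahiwal mean, -3.32, lay under the limits of Ladakhi arrays 1 and 2, so being measured favoured a higher Ladakhi level. PCK2, the mitochondrial phosphoenolpyruvate carboxykinase that draws on oxaloacetate, was higher by 1.17 (SE 0.32, adjusted p = 0.00977 by limma) with probe A_73_P079071 and by 0.995 (SE 0.28, adjusted p = 0.012 by limma) with A_73_P102501. The breeds did not overlap for either probe of PCK2. The Sahiwal mean of A_73_P079071, -3.34, also lay under the limits of Ladakhi arrays 1 and 2, while that of A_73_P102501, -2.47, did not. The other 7 probes did not pass. PDHA1, the catalytic subunit of pyruvate dehydrogenase, gave -0.88, MPC1 of the mitochondrial pyruvate carrier (BRP44L in the array's own naming) -0.57, and the kinase PDK3 -0.31. The citrate-cleaving enzyme ACLY gave -0.24 and -0.12, the aminotransferase GOT2 -0.19 and the oxoglutarate carrier SLC25A11 0.47. MPC1 passed with slide as a random block (-0.57, adjusted p = 0.0455), a setting no stricter than the main fit, and in the authors' table (-0.73, adjusted p = 0.0453). SLC25A11 passed with quantile normalization (0.78, adjusted p = 0.0109) and with normexp (1.24, adjusted p = 3.05e-05).

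The cell make-up of the samples was read from marker genes. T cell markers were seen in both breeds, with all 6 genes detected on some arrays of each. Of 5 measured monocyte probes, 3 were lower in Ladakhi, those of LYZ (-1.80 and -1.86) and SPI1 (-1.36), while FCER1G was higher at 1.82 and CSF1R gave -0.07. The FCER1G probe had a Sahiwal mean of -3.98, under the limit of Ladakhi, so it could be measured only by being higher there. The summed linear signal of the 5 monocyte probes, relative to the array's 75th percentile, was 2.21 to 3.68 in Ladakhi and 4.56 to 12.8 in Sahiwal. Of 3 further monocyte probes on 1 to 3 Ladakhi arrays, 1 was lower with dim signals raised, CSF1R A_73_P045266 at -1.45 (adjusted p = 0.00337 by limma). Another, of FCER1G, came out higher with a Sahiwal mean under the limit of Ladakhi. CD163 was detected on 0 Ladakhi arrays. Of 5 T cell probes, 2 were higher and 0 lower, with summed signals of 3.1 to 8.64 in Ladakhi and 1.76 to 4.26 in Sahiwal. Of the 2, CD2 A_73_114396 had a Sahiwal mean of -5.22, under the limit of Ladakhi. It could be measured only by being higher there. Of 5 further T cell probes on 1 to 3 Ladakhi arrays, 2 were lower with dim signals raised, CD3E A_73_104727 at -1.58 and CD3G A_73_111056 at -1.28 (adjusted p = 0.00745 and 0.00577 by limma), and the 3 that came out higher had Sahiwal means under the limit of Ladakhi. Granulocyte probes, 3 of S100A12, had 1 lower and 0 higher, with sums of 2.06 to 5.14 in Ladakhi and 3.97 to 11.7 in Sahiwal, and CAMP was detected on no array. B cell probes had 1 of 2 higher, with sums of 1.13 to 1.84 in Ladakhi and 0.643 to 1.57 in Sahiwal, and CD79B and PAX5 were detected on 0 Ladakhi arrays. The B cell probe on 3 Ladakhi arrays, MS4A1 A_73_105053, was lower with dim signals raised (-1.30, adjusted p = 0.00682 by limma). NK cell, red cell and platelet markers had 0 of 3, 0 of 1 and 0 of 1 measured probes called, with summed signals of 1.05 to 2.42, 0.241 to 0.454 and 1.60 to 2.22 in Ladakhi, against 0.294 to 1.27, 0.0436 to 1.59 and 0.202 to 4.01 in Sahiwal. The NK cell sum of Sahiwal animal 3 lacks NKG7, whose value was missing there, so the upper end of the Sahiwal NK cell sums may be understated. No Ladakhi array detected CSF3R, CXCR2, ELANE, KLRD1, NCR1, HBA, SLC4A1 or TUBB1, and no Sahiwal array detected SLC4A1. Apart from CSF3R (Sahiwal mean -2.64), the Sahiwal means of these genes' probes lay under the limit of Ladakhi. The same held for CD163, CD79B and PAX5, so their absence in Ladakhi is not read. The CSF3R mean rests on Sahiwal animals 4 and 6, at 0.15 and 0.59. The other Sahiwal animals, at -4.65 to -3.73, lay under the limit of Ladakhi for CSF3R too. The part of cell make-up in the enzyme differences was not tested.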

How the data were processed

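Per the labels' protocols, PBMC RNA was copied with a T7 primer, amplified as cRNA and labelled with Cy3. The deposited intensity values are, per the file headers, Feature Extraction processed signals, read on an Agilent scanner with version 12.0.1.1 for Ladakhi and on an Axon GenePix scanner with version 9.5.3.1 for Sahiwal. They are background-subtracted, with a surrogate where a spot is not above background. Spots with a surrogate are only part of those not marked well above background. Ladakhi slides held 4 and 1 arrays and Sahiwal slides 2 and 4. A table of log2 values was deposited as well by the authors, whose centring and scaling between arrays are not given in the sources used here. Each of its columns matched another array of the same breed (r 0.964 to 0.991) better than the array it is named after (r 0.00581 to 0.661), so animal numbers, taken from the scanner files, are unsettled, and the table served only as an alternative for the breed comparison. The medians of its Ladakhi columns were 1.6 to 2.31, and those of its Sahiwal columns -0.73 to 0.00.

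Control spots were left out, 294 outlier-marked spots set missing (none of an enzyme gene), spots of a probe averaged, and log2 values centred on the 75th percentile of their array, taken over the 2705 probes that all arrays detected, since under 50% of probes were detected. Saturated spots were kept, and none was an enzyme probe. Breeds were compared with limma 3.58.1 in R 4.3.3 (lmFit, eBayes, Benjamini-Hochberg over 17865 tested probes, 2-sided). The fit was run on simulated independent normal values as well. These held no detection limit, surrogates, shared array effects or scanner difference, so that run says nothing about such effects. The p-values measure the spread between these animals, and the number of arrays limits precision. Named were all probes of the 9 genes, genes of the other pathway lists with a measured probe, and the 3 genes most like the enzymes. SUCLG2 probe A_73_112489, SDHB, SDHD, DLD, the second SDHA and SDHC probes and the marker genes named were chosen after their values were seen. A gene of the other cycle list and a marker gene are not reported here and were left out of their lists' counts. The members and lists were chosen with earlier results of these data known. Gene names of the array were updated through RefSeq's gene table of ARS-UCD2.0, which matched the accessions of 26740 probes, and coordinates are those of the files. Alternatives covered scaling, background correction, dim signals, outlier marks, slide, animal number, the authors' table and each animal left out.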

Additional observations from a re-analysis of the deposited data

Results flagged for a closer look

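Among the 42 sets of values checked, a breed's animals for each measured probe of the enzyme, cycle and feeding genes, 3 held an animal far from the others, where chance gives about 1 in 20. All 3 were Ladakhi animal 4, on the low side. CS probe A_73_109183 was at -5.73 in this animal, where the nearest other Ladakhi animal was at -1.48. PDHA1 probe A_73_111180 was also at -5.73, with the nearest at -2.55. The CS spot of animal 4 had a raw median signal of 276.5 over a background of 94.5, against 628 over 77 in Ladakhi animal 1, the nearest. Both -5.73 values were surrogates for signals not above background, so these gaps are not measured sizes. PDK3 probe A_73_114206 was at -3.71, with the nearest at -3.00. None of the 3 breed differences passed with or without this animal.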

How the results depend on the processing

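Over all tested probes, 7475 passed, against 13477 with normexp, 12570 with dim signals raised and 1100 of 2705 when only probes detected on all arrays were tested, where fewer probes enter. Leaving out an animal gave 6453 to 7490. Of the measured enzyme probes, 2 were lower, against 1 with quantile normalization, 1 with normexp, and 0 to 2 with an animal left out, while 0 were higher in every setting run. Of the tested enzyme probes, 4 were higher and 8 lower, against 2 and 4 with quantile normalization, 13 and 1 with normexp, 11 and 3 with dim signals raised, and 0 and 2 over probes detected on all arrays; with an animal left out, 4 to 9 were lower. Animal numbers did not pair the breeds (correlations of same-numbered animals -0.07 to 0.05, own number best in 0 of 5 pairs). With the animal number as a replicate block, 6408 probes passed in all, 0 measured enzyme probes and 3 tested ones were lower, and MDH2 A_73_P422416 gave -0.82 (adjusted p = 0.0808 by limma), MDH2 A_73_P043566 -0.87 (adjusted p = 0.121 by limma) and SUCLG1 A_73_101561 -0.84 (adjusted p = 0.088 by limma). The median of the 6 enzyme probes stayed below 0, at -0.59 to -0.15 over settings and -0.56 to -0.19 with an animal left out. All measured probes shifted to 0.27 with normexp, 0.17 with quantile normalization and -0.18 in the authors' table, from -0.02. With normexp, IDH2 A_73_P337931 turned to 1.23 (adjusted p = 3.23e-05 by limma), FH A_73_102956 to 0.42 (adjusted p = 0.109) and PDK3 A_73_114206 to 0.69 (adjusted p = 0.0196), and with dim signals raised, IDH2 A_73_P337931 turned to 0.71 (adjusted p = 0.0299); the cause was not tested, other than that raising sets the direction of a probe whose Sahiwal mean is below the Ladakhi limit. With slide as a random block, 9415 probes passed and both measured enzyme calls were kept. The slide correlation was estimated at -0.11 and each slide held 1 breed. This setting was thus no stricter than the main fit and cannot show that a call withstands a slide effect. IDH3G, SUCLG2, SDHC, PDK2 and PCK2 passed in all settings in which they were tested and with each animal left out. For IDH3G probe A_73_103536 this adds no support, since its Sahiwal mean lay under the limit of Ladakhi. The Sahiwal means of SUCLG2 probe A_73_P039821, PDK2 and PCK2 probe A_73_P079071 lay just under the limits of Ladakhi arrays 1 and 2. Being measured favoured higher Ladakhi levels of these probes, which passing in all settings does not remove. The dim Ladakhi signal limits 16 of the 22 tested enzyme probes.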
